A study of Mus musculus with 24 samples.

Results

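The 53 genes described here encode the machinery of DNA replication and cell division, and they were taken by symbol from the 55487 gene identifiers of the deposited raw count table. They divide by known role into 22 S phase members, which license and copy DNA or supply its building blocks, and 31 mitotic members, which act from late S phase through G2 and mitosis. The rule goes by symbol, but the list was chosen with earlier results of these data known, so counts over the members are descriptive. All 53 had enough reads to be tested.

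In a dividing cell, cyclin D and cyclin E kinases inactivate the RB proteins and release E2F transcription factors, which switch on the genes for the MCM helicase, its loaders and the enzymes that make nucleotides. Later in the cycle FOXM1, MYBL2 and the MuvB complex raise a second wave of genes, among them the B cyclins, CDK1, the kinetochore and the spindle motors. Macrophages grown from bone marrow divide in response to growth factor and commonly leave the cycle when they meet inflammatory stimuli, whereas T cells enter it when they recognise antigen.

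RNA sequencing was done on co-cultures of spleen lymphocytes with bone marrow-derived macrophages (BMDMs). In all 8 groups the lymphocytes came from mice with tumours of B16-F10-OVA, melanoma cells that make the model antigen ovalbumin. The macrophages were WT or Tmem175-/-, which lack a lysosomal potassium and proton channel; the labels give the lymphocytes no genotype. For each macrophage genotype there were 3 libraries without antigen, 3 with B16-F10-OVA tumour cell antigen, 3 with antigen and IL-1beta at 500 pg/ml, and 3 with antigen and IL-18 at 500 pg/ml. The cultures were sequenced whole, so macrophage and lymphocyte RNA are mixed, and fewer cells of a type cannot be told apart from less RNA per cell. Culture time, antigen dose, mouse age and whether the 3 libraries of a group came from separate cultures or mice are not given in the sources used here, so p-values measure only the spread between these libraries.

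Total counts per library ran from 17744540 to 24898552, and the 53 genes together held 19061 to 54225 counts, or 0.107% to 0.268% of a library. Tmem175 checked the genotype labels: it stood at 24.4 to 26.1 CPM (the usual counts-per-million scale, here from library sizes adjusted by TMM factors of 0.979 to 1.05) in WT cultures without antigen against 14.1 to 15 CPM in Tmem175-/- cultures, and at 12.8 to 16.3 against 7.61 to 9.24 CPM in the antigen groups, with no overlap within either condition. Which part of the gene is deleted is not given in the sources used here, so the remaining reads were not placed. In 11 of the 12 Tmem175-/- samples the genotype field names another gene, while the title gives Tmem175-/-, and the titles were used. The 12 macrophage markers summed to 14100 to 27400 CPM per library, the 12 T cell markers to 19.1 to 34.9 CPM and the 8 B cell markers to 8.09 to 19.5 CPM.

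Promoter sequences show the 2 kinds of regulatory words that the literature ties to the 2 waves. RefSeq promoters on GRCm38.p6 matched 44 of the 53 members, 18 S phase and 26 mitotic. There was no entry for Aurkb, Ccna2, Ccne2, Foxm1, Gins1, Gins2, Kif20a, Mcm4 or Tpx2. In the 250 bases before the start, on both strands, E2F-type words were sought, namely TTCCCGC, then the word TTCGCGC, the word TTGCCGC and the word TTGGCGC, and at least 1 was found in 9 of 18 S phase members (50%) and 4 of 26 mitotic members (15.4%), against 9.01% of 27025 genes with a promoter. Cell cycle homology region words, known as CHR (TTTGAA or TTCGAA), were found in 22.2% of the S phase and 38.5% of the mitotic promoters, against 19.6% of all. The word CCAAT was found in 66.7% and 76.9%, against 37.5% of all; on the reverse strand it can overlap TTGGCGC, and E2F-type words can overlap each other. A match is a description of the letters and not a bound site. The 8 examples below, each the 180 bases before the start read 5′ to 3′ on the gene's strand, hold such words within the stretch shown, from 15 to 179 bases before the start, and were picked after the search; capitals mark the E2F-type words in the 4 S phase genes and the CHR words in the 4 mitotic genes.
Mcm5, a helicase subunit, chr8:75109329-75109508, plus strand: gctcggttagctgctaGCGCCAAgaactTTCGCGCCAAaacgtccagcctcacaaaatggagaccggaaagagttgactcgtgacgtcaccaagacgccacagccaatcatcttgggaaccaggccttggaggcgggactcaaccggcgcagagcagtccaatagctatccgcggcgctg
Mcm6, a helicase subunit, chr1:128359706-128359885, minus strand: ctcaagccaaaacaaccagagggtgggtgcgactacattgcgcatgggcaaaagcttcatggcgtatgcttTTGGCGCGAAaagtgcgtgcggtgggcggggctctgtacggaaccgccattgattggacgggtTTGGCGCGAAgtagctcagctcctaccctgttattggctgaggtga
Chaf1a, a histone chaperone subunit, chr17:56040236-56040415, plus strand: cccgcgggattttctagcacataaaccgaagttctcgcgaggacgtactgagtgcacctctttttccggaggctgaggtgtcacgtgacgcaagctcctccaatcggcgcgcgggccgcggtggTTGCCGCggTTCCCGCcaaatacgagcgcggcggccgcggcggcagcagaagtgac
Rrm1, the large ribonucleotide reductase subunit, chr7:102441515-102441694, plus strand: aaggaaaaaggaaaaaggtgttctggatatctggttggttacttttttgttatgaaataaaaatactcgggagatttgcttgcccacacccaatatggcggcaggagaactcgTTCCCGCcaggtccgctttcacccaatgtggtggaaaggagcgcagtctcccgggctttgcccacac
Cdc20, an activator of the anaphase-promoting complex, chr4:118437344-118437523, minus strand: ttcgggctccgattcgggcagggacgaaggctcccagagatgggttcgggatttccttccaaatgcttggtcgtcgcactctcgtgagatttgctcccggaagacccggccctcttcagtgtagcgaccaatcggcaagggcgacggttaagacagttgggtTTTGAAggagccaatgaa
Cdk1, the kinase that drives entry into mitosis, chr10:69352913-69353092, minus strand: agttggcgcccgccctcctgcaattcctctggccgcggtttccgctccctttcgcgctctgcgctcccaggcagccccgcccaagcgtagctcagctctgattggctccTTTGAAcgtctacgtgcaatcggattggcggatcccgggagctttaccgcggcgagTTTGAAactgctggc
Top2a, the topoisomerase that untangles replicated chromosomes, chr11:99024190-99024369, minus strand: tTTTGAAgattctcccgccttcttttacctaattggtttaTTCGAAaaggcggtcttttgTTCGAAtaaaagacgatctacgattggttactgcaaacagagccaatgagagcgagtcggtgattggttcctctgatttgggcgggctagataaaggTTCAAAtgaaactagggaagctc
Ube2c, the ubiquitin-conjugating enzyme of that complex, chr2:164769749-164769928, plus strand: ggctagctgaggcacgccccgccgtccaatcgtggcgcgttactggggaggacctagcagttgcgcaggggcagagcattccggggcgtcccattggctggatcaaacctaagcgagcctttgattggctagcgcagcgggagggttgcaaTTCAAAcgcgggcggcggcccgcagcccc

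Levels differed widely between members. On a scale of CPM per kilobase of the longest annotated transcript, averaged over the 8 groups, Pcna stood highest at 145, followed by Top2a at 26.9, Rrm2 at 14.3 and Mki67 at 14. Mybl2 stood lowest at 1.35, below Cdc6 and Tyms, both at 1.75. Pcna, the sliding clamp of the replicative polymerases, therefore carried the most reads per length of any member, and the values below are given per gene in CPM without a length correction, so that they compare libraries and not genes.

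The comparison of WT cultures with and without tumour antigen asks how the replication and division programme changed with antigen when the macrophages were WT. Almost the whole programme was lower with antigen: 51 of the 53 members fell, 1 rose and 1 did not pass the test (edgeR quasi-likelihood test, Benjamini-Hochberg adjusted p under 0.05 over 14099 genes). The background was high, since 68% of the 14099 genes tested passed in this comparison, and 34.5% of the 14099 fell; the median log2 fold change of all genes was -0.00322. The median log2 fold change was -0.93 over the 22 S phase members and -1.32 over the 31 mitotic members.

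Among the S phase members, all 6 subunits of the MCM helicase fell, by 0.73 to 1.28 on the log2 scale. Mcm5 measured 46.7, 47.4 and 46.2 CPM in WT libraries without antigen and at 18.3, 20.2 and 19 CPM with antigen, and at 47.1, 43 and 37.1 against 24.9, 24.8 and 24.3 CPM in the Tmem175-/- cultures. All antigen libraries of either genotype lay below all libraries without antigen. The log2 fold change of Mcm5 was -1.28 (SE 0.0676, adjusted p = 6.08e-16 by edgeR) in WT cultures and -0.78 (SE 0.0655, adjusted p = 1.72e-11) in Tmem175-/- cultures. The licensing factors Cdt1 and Cdc6, which load the helicase, fell by 0.92 and 0.67 in WT cultures, and the helicase activators Gins1, Gins2 and Cdc45 fell by 0.88, 0.96 and 0.44.

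Pcna showed the deepest fall of any S phase member. Its level was 406, 458 and 409 CPM in WT libraries without antigen and 133, 132 and 128 CPM with antigen. In the Tmem175-/- cultures it was 488, 501 and 451 CPM without and 164, 156 and 154 CPM with antigen. In both genotypes the antigen libraries lay far under those without antigen, and the genotypes overlapped without antigen but not with it. The fall was 3.23-fold (log2 fold change -1.69, SE 0.0436, adjusted p = 4.32e-23 by edgeR) in WT and 3.04-fold in Tmem175-/- cultures. Uhrf1, which carries DNA methylation through replication, and Chaf1a, which lays histones on new DNA, fell by 1.11 and 0.71 in WT cultures.

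The nucleotide enzymes fell together in WT cultures, with log2 fold changes of -1.01 for both ribonucleotide reductase subunits Rrm1 and Rrm2, -1.23 for thymidylate synthase Tyms and -0.92 for thymidine kinase Tk1. Rrm2 stood at 39.6, 44 and 40.7 CPM in WT libraries without antigen and at 19.7, 20.3 and 21.6 CPM with it. In the Tmem175-/- cultures Rrm2 stood at 35.5, 43.8 and 33.2 CPM without and at 35.4, 34.5 and 31.1 CPM with antigen. The WT groups did not overlap, whereas the Tmem175-/- groups did, and the log2 fold change there was -0.15 (SE 0.0822, adjusted p = 0.113 by edgeR).

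Cyclin E1 and E2F1, which act upstream of the other S phase genes, did not follow them. Ccne1, the cyclin that drives entry into S phase, stood at 7.65, 8.74 and 7.82 CPM in WT libraries without antigen and at 16.1, 15.7 and 15.8 CPM with it, and at 8.11, 7.72 and 7.81 against 15.1, 16.7 and 16.5 CPM in Tmem175-/- cultures. It was the only member that rose in WT cultures, by a log2 fold change of 0.97 (SE 0.0792, adjusted p = 8.59e-12 by edgeR), and it rose by 1.03 in Tmem175-/- cultures. Its paralogue Ccne2 went the other way, from 17.3, 18 and 15.1 CPM to 7.74, 8.84 and 7.84 CPM in WT cultures and from 14.7, 18.3 and 14.1 CPM to 11.1, 11.2 and 11.2 CPM in Tmem175-/- cultures. Ccne2 thus fell in both genotypes without overlap, by 1.04 and 0.49 on the log2 scale. E2f1 stood at 24.8, 23.2 and 26.2 CPM without and 23.7, 26.4 and 21 CPM with antigen in WT cultures, where the groups overlapped and the log2 fold change was -0.06 (SE 0.0666, adjusted p = 0.461). In Tmem175-/- cultures E2f1 fell by 0.18 (adjusted p = 0.0198).

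All 31 mitotic members fell in WT cultures, where 34.5% of all genes fell. Each had its 3 antigen libraries below its 3 libraries without antigen. How many of all genes were apart in this way was not counted. The falls ran from 0.48 for Aurkb, the kinase of the chromosomal passenger complex, to 1.92 for Kif23, a kinesin of the central spindle. By role, the median log2 fold change was -1.64 over the 6 centromere and kinetochore genes, -1.33 over the 8 motors and spindle proteins, -1.25 over the A2 and B cyclins with Cdk1, and -1 over the 3 spindle checkpoint genes. The kinetochore genes Cenpf, Cenpe, Cenpa and Ndc80 were among the most reduced, at -1.88, -1.65, -1.65 and -1.63.

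Cyclin A2 and the B cyclins, the partners of CDK1, fell less in Tmem175-/- cultures or did not pass there. Ccna2 stood at 65.5, 70.2 and 66.3 CPM in WT libraries without antigen and 22.5, 23 and 23.1 CPM with antigen, and at 52.7, 58.7 and 52.8 against 37.6, 36.3 and 35 CPM in Tmem175-/- cultures. The 4 groups of Ccna2 values did not overlap, and the fall was 1.56 on the log2 scale in WT and 0.59 in Tmem175-/- cultures. Ccnb2 stood at 24.7, 24.3 and 26.2 CPM against 9.94, 9.93 and 9.67 CPM in WT cultures, and at 19.3, 22.6 and 20.2 against 18.1, 15.7 and 17.6 CPM in Tmem175-/- cultures. Its falls were 1.35 and 0.27. Ccnb1 stood at 42.9, 46.5 and 46.7 CPM without antigen and 27.6, 26.7 and 26.8 CPM with it in WT cultures, but at 35, 32.9 and 35 CPM and at 37.3, 34.4 and 34.5 CPM in Tmem175-/- cultures. Only the WT groups of Ccnb1 were apart (log2 fold change -0.75, SE 0.0518, adjusted p = 2.57e-13 by edgeR); in Tmem175-/- cultures they overlapped (0.05, SE 0.0512, adjusted p = 0.43).

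The Tmem175-/- cultures are the same comparison with macrophages that lack the channel. There 46 members fell, 3 rose and 4 did not pass, against 68.3% of all genes that passed. Of the S phase members 18 fell, and of the mitotic members 28 fell; the medians were -0.47 and -0.53, so that the 2 classes lay closer together than in WT cultures. Besides Ccne1, the members that rose were E2f8 (0.23, adjusted p = 0.00488), a repressive E2F, and Aurkb (0.23, adjusted p = 0.0128 by edgeR), each with overlapping groups. The 4 that did not pass were Rrm2, Cdc45, Ccnb1 and the ubiquitin-conjugating enzyme Ube2c (-0.03, adjusted p = 0.762). The deepest falls were those of Pcna (1.61), Kif23 (1.11), Cenpa (1.11), the histone H3 variant of centromeres, Cenpf (1.09) and Mki67 (1.03), the usual marker of cycling cells.

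**Figure D1:**
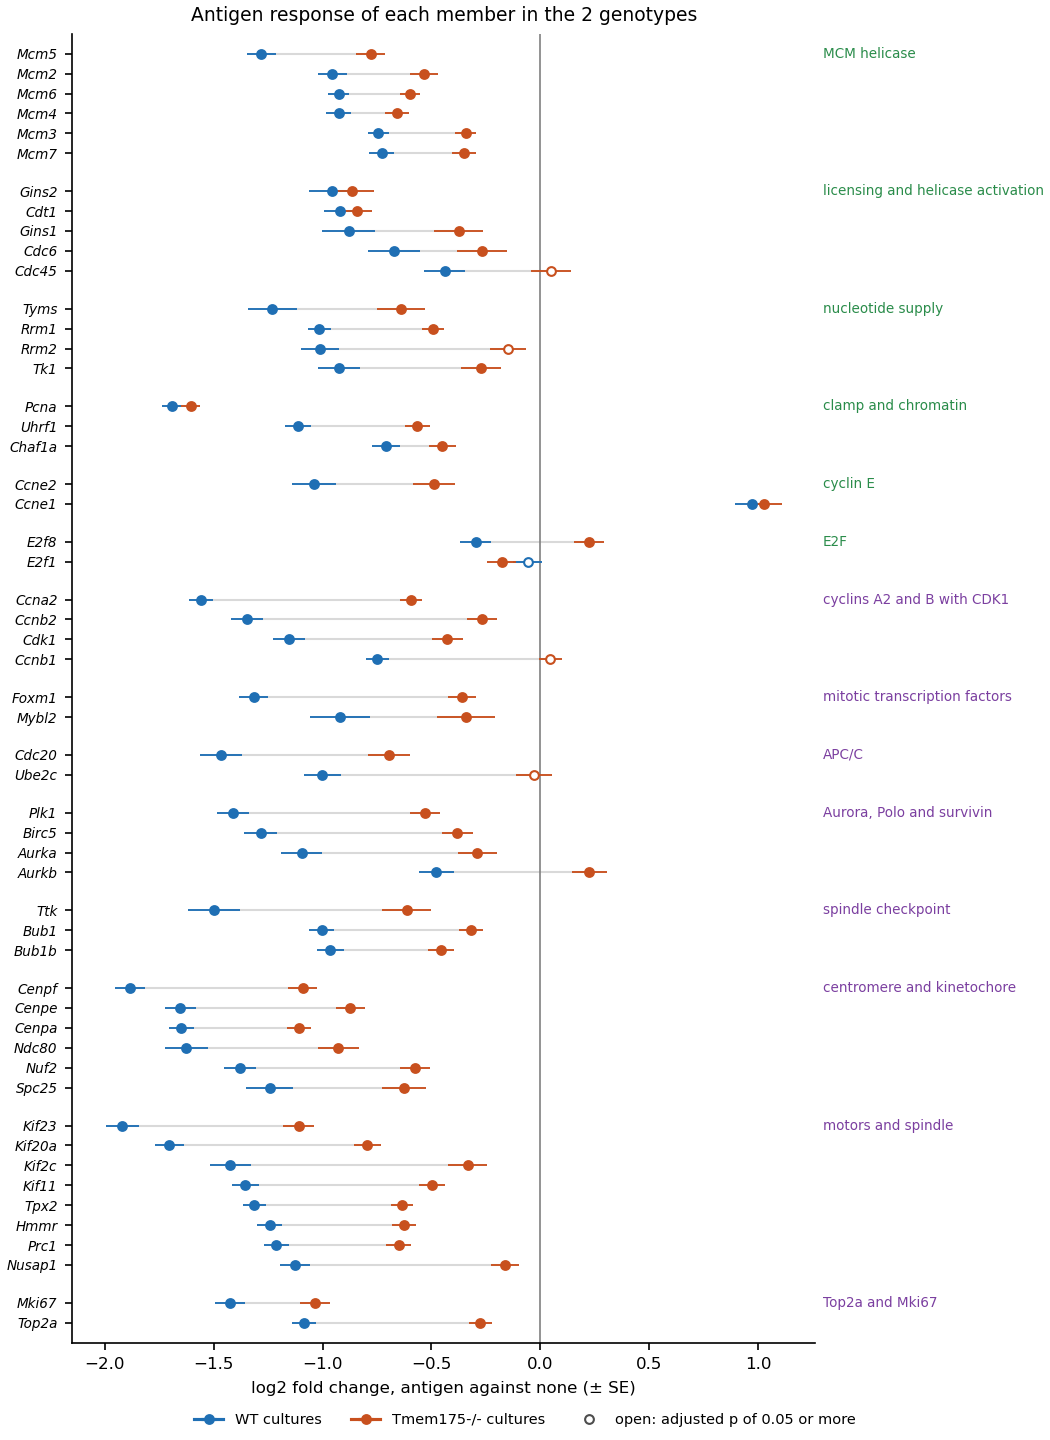
Log2 fold change (± SE) of each of the 53 members with tumour antigen against none, in WT cultures (blue) and Tmem175-/- cultures (orange), grouped by role; open points did not pass the adjusted p of 0.05. Mitotic members lie between -1.92 and -0.48 in WT cultures and between -1.11 and 0.23 in Tmem175-/- cultures, while Ccne1 rose in both.

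Whether the antigen response differed between the genotypes was tested gene by gene as the difference of the 2 responses. It differed for 44 of the 53 members, always toward a weaker fall or a rise in the Tmem175-/- cultures, where 8.39% of all genes passed, 3.79% in that direction and 4.6% in the other. The S phase members contributed 14 of 22, with a median difference of 0.41, and the mitotic members 30 of 31, with a median of 0.8. The mitotic member that did not pass was Mybl2 (0.58, adjusted p = 0.0572). Scaled by library totals alone, the direction of all members that passed was unchanged (16 S phase and 31 mitotic members, all higher), although the split of all genes moved from 534 higher and 649 lower to 1138 higher and 281 lower.

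The largest mitotic differences were those of Kif2c, a microtubule-depolymerising kinesin (1.09, SE 0.13), and Ccnb2 (1.08, SE 0.102, adjusted p = 7.33e-08 by edgeR). Ccna2 followed at 0.97 (SE 0.074, adjusted p = 3.03e-09), the smallest p of all members, then Nusap1, a spindle microtubule protein, at 0.97, Ube2c at 0.97, and Foxm1, the transcription factor of the mitotic wave, at 0.95. Foxm1 stood at 21.8, 22.8 and 21.9 CPM without and 8.41, 8.92 and 9.37 CPM with antigen in WT cultures, and at 17.3, 17.9 and 16.7 against 13.6, 13.9 and 12.9 CPM in Tmem175-/- cultures. The genotypes thus lay apart in opposite orders without and with antigen. Mki67 had the smallest called mitotic difference (0.39, adjusted p = 0.0127).

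With all 24 libraries in the edgeR fit, all 6 MCM subunits and all 4 nucleotide enzymes were among the S phase members whose response differed. Rrm2 had the largest difference (0.86, SE 0.12, adjusted p = 4.39e-05 by edgeR), then Tk1 (0.65), Tyms (0.59), Uhrf1 (0.55) and Ccne2 (0.55). Of the 5 licensing and helicase activation genes only Cdc45 passed (0.49, adjusted p = 0.0169). Some of these calls depended on the fit. Mcm4 did not pass by DESeq2 or with only the compared groups. With 1 library left out, Mcm4, Tyms, Ccne2 or Cdc45 dropped out in some fits, and 11 to 15 S phase members passed in place of 14. Pcna, which fell the most, had a difference of 0.09 (SE 0.0601, adjusted p = 0.445), and Cdt1, Gins2, Ccne1 and E2f1 had differences of 0.08, 0.09, 0.05 and -0.12, none of which passed. A p above the threshold does not show that these responses were alike.

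The difference of responses is built from the 2 genotype differences below, which share its libraries. Without antigen the mitotic genes were lower in Tmem175-/- cultures: 25 of 31 fell and none rose, with a median of -0.27 and a range of -0.47 to -0.02, where 16.9% of all genes passed and 7.25% were lower. The 8 motors and spindle proteins all fell, led by Kif2c (-0.47) and Kif11 (-0.34), a spindle kinesin. Both APC/C genes fell, Cdc20 by 0.42 and Ube2c by 0.37, as did Ccnb1 (-0.4, SE 0.0504, adjusted p = 7.64e-07 by edgeR), Foxm1 (-0.36), Top2a (-0.33) and Mki67 (-0.3). The 6 that did not pass were Aurka, Ttk, Mybl2, Ndc80, Spc25 and Cenpa, whose log2 fold changes ran from -0.23 to -0.02.

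Few S phase members differed between genotypes without antigen. Mcm3, Mcm6, Rrm1 and Uhrf1 fell, by 0.14, 0.17, 0.15 and 0.24, Pcna rose by 0.18 (adjusted p = 0.00266 by edgeR), and 17 of 22 did not pass. This share of 22.7% is near the 16.9% of all genes, and the median was -0.12. The count moved with the libraries and the scaling: it was 2 without Tmem175-/- replicate 3 or without WT replicate 2, 8 without Tmem175-/- replicate 2, 3 by DESeq2, and 11, all lower, with library totals alone. With library totals Pcna no longer passed, and all genes split into 798 higher and 2168 lower in place of 1357 and 1022.

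With antigen the direction was the opposite. In Tmem175-/- cultures 45 of the 53 members were higher than in WT cultures and none was lower, where 15.3% of all genes passed, 7.7% higher and 7.62% lower. Of the mitotic members 29 of 31 rose, with a median of 0.53, and of the S phase members 16 of 22, with a median of 0.29. Ccnb2 was 0.8 higher (SE 0.0766, adjusted p = 7.12e-09 by edgeR), Ccna2 0.67 (adjusted p = 6.75e-10), Nusap1 0.69, Birc5, the survivin subunit of the passenger complex, 0.69, and the kinesin Kif20a 0.64. Birc5 stood at 9.82, 9.84 and 9.62 CPM in the WT and 16.3, 15.7 and 15.2 CPM in the Tmem175-/- antigen libraries, with a wide gap between the groups. Plk1, the Polo kinase of mitotic entry and exit, stood at 8.07, 8.88 and 8.53 CPM and at 12.8, 12.6 and 13.4 CPM. Plk1 groups were likewise apart.

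The mitotic members that did not pass were Mki67 and Mybl2. Mki67 stood at 98, 110 and 102 CPM in WT and 111, 118 and 101 CPM in Tmem175-/- antigen libraries, and these overlapped (log2 fold change 0.09, SE 0.0691, adjusted p = 0.461 by edgeR). Top2a, the other gene commonly used to mark cycling cells, stood at 93.7, 103 and 103 CPM against 149, 142 and 128 CPM and did not overlap (0.48, SE 0.0557, adjusted p = 4.14e-07). The S phase members that did not pass were Cdc6, Cdt1, Gins2, Chaf1a, Ccne1 and E2f1, at 0.29, 0.18, 0.05, 0.12, 0.02 and -0.06. Every MCM subunit and every nucleotide enzyme rose, with Rrm2 at 0.71 and Gins1 at 0.55 the largest S phase values. Tyms, Cdc45 and the mitotic member Cdc20 did not pass by DESeq2 or with only the compared groups. In some fits with 1 library left out, Mcm4, Mcm6, Cdc45, Tyms or Cdc20 dropped out.

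The genotype difference was repeated in the cultures with cytokine, which are separate libraries. With antigen and IL-1beta, 13 S phase and 28 mitotic members were higher in Tmem175-/- cultures and none was lower, with medians of 0.24 and 0.39, where 13.8% of all genes passed, 7.22% higher and 6.55% lower. With antigen and IL-18, 12 and 27 were higher and none was lower, with medians of 0.26 and 0.37, where 20.2% passed, 9.89% higher and 10.3% lower. Ccna2 had the smallest p of the members in both, at 0.6 (adjusted p = 4.44e-09 by edgeR) and 0.58 (adjusted p = 9.23e-09), while the largest log2 fold changes were those of Rrm2 with IL-1beta (0.63) and Birc5 with IL-18 (0.64). The Ccna2 values were 23, 25.2 and 25 CPM against 38, 37.5 and 35.2 CPM with IL-1beta, and 23.6, 23.4 and 22.3 CPM against 34, 36.7 and 32.7 CPM with IL-18. In all 3 antigen conditions Ccna2 in the Tmem175-/- libraries lay above every WT antigen library. Mki67 passed in neither, at 0.11 and 0.04.

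**Figure D2:**
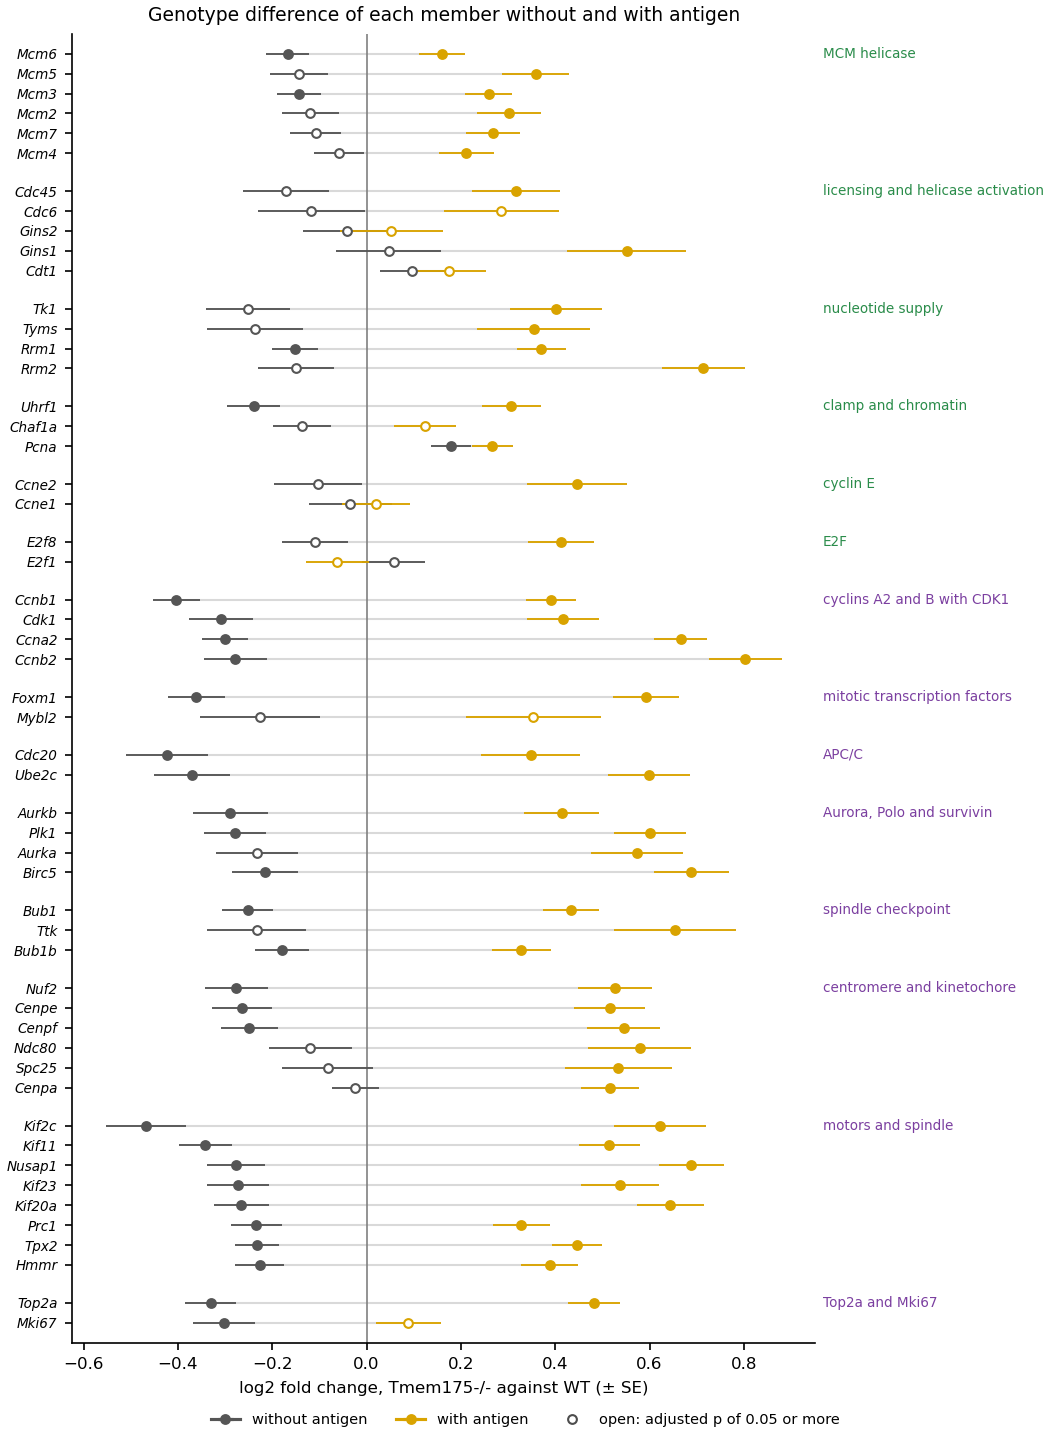
Log2 fold change (± SE) of each member in Tmem175-/- against WT cultures, without antigen (grey) and with antigen (yellow), grouped by role; open points did not pass the adjusted p of 0.05. The mitotic members lie from -0.47 to -0.02 without antigen and from 0.09 to 0.8 with it.

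Several cell type marker lists moved with these comparisons, and their part in the results was not tested. With antigen 8 of the 12 T cell markers rose in Tmem175-/- cultures and 1 in WT cultures, where 33.8% and 33.5% of all genes rose. The response of 1 differed between genotypes, against 8.39% of all genes. These markers had low levels. With antigen in Tmem175-/- cultures the mean of Cd3e went from 1.15 to 1.87 CPM and that of Trac from 1.28 to 1.85 CPM. Cd5 went from 0.655 to 0.575 CPM. Thy1, which is also on the fibroblast list, went from 4.75 to 8.27 CPM. Without antigen, where 16.9% of all genes passed, 4 of 6 tested B cell markers, 3 of 6 stem and progenitor markers and 6 of 10 fibroblast markers were lower in Tmem175-/- cultures, and 6 of 7 tested plasma cell markers were higher. Between genotypes with antigen, 1 of the 12 T cell markers was called, higher in Tmem175-/- cultures, and the summed T cell level was 23.8 to 29 CPM in WT and 28.2 to 33.2 CPM in Tmem175-/- libraries; without antigen it was 24.5 to 25.9 and 19.1 to 20.6 CPM. Of the 12 macrophage markers 2 were higher and 2 lower with antigen, and their sum was 26300 to 27200 CPM in WT and 16900 to 19600 CPM in Tmem175-/- libraries; Lyz2 alone held 14800 and 6850 CPM of this on average. The 10 fibroblast markers were lower for 7 genes, with sums of 141 to 212 against 52.5 to 61.7 CPM. In this genotype comparison with antigen 7.7% of all genes were higher and 7.62% lower. The plasma cell list summed to 309 to 325 CPM in WT and 439 to 464 CPM in Tmem175-/- libraries, with Jchain at means of 6.08 and 145 CPM and Sdc1 the other way, at 116 and 86.6 CPM. The sum of the neutrophil and precursor list went with antigen from 1300 to 1450 CPM to 642 to 758 CPM in WT and from 1340 to 1450 CPM to 697 to 742 CPM in Tmem175-/- cultures. Of its 12 genes 9 and 8 fell, where 34.5% and 34.6% of all genes fell, while Lcn2 went from a mean of 68.7 to 277 CPM in WT cultures. In Tmem175-/- against WT cultures 2 of the 12 were higher with antigen alone, 8 with IL-1beta and 6 with IL-18. Of all genes 7.7%, 7.22% and 9.89% were higher in these 3 comparisons. Of the 7 melanoma markers, 1 had enough reads to be tested, and Mitf, which macrophages also express, held nearly all of their counts. The 6 NK cell markers summed to 5.65 to 10.5 CPM, the 6 stem and progenitor markers to 6.47 to 18.5 CPM and the 6 erythroid markers to 122 to 349 CPM over all libraries.

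The contrast between the 2 classes is summarised by the mean log2 CPM of the S phase members less that of the mitotic members in each library. Since gene length is not corrected, only its change between libraries can be read, and it was given no test. It was -0.28 to -0.21 in WT libraries without antigen and -0.13 to -0.02 in Tmem175-/- libraries without antigen. With antigen, with or without cytokine, it was 0 to 0.1 in the 9 Tmem175-/- libraries and 0.18 to 0.29 in the 9 WT libraries. These 4 sets of libraries did not overlap. The S phase mean fell from 4.82 ± 0.03 (SD, n = 3) to 4.02 ± 0.03 with antigen in WT cultures and the mitotic mean from 5.05 ± 0.01 to 3.75 ± 0.06. In Tmem175-/- cultures the S phase mean went from 4.72 ± 0.07 to 4.31 ± 0.03 and the mitotic mean from 4.79 ± 0.02 to 4.26 ± 0.06. The mitotic genes therefore fell more than the S phase genes in WT cultures, and the 2 classes fell by a more similar amount in Tmem175-/- cultures.

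**Figure D3:**
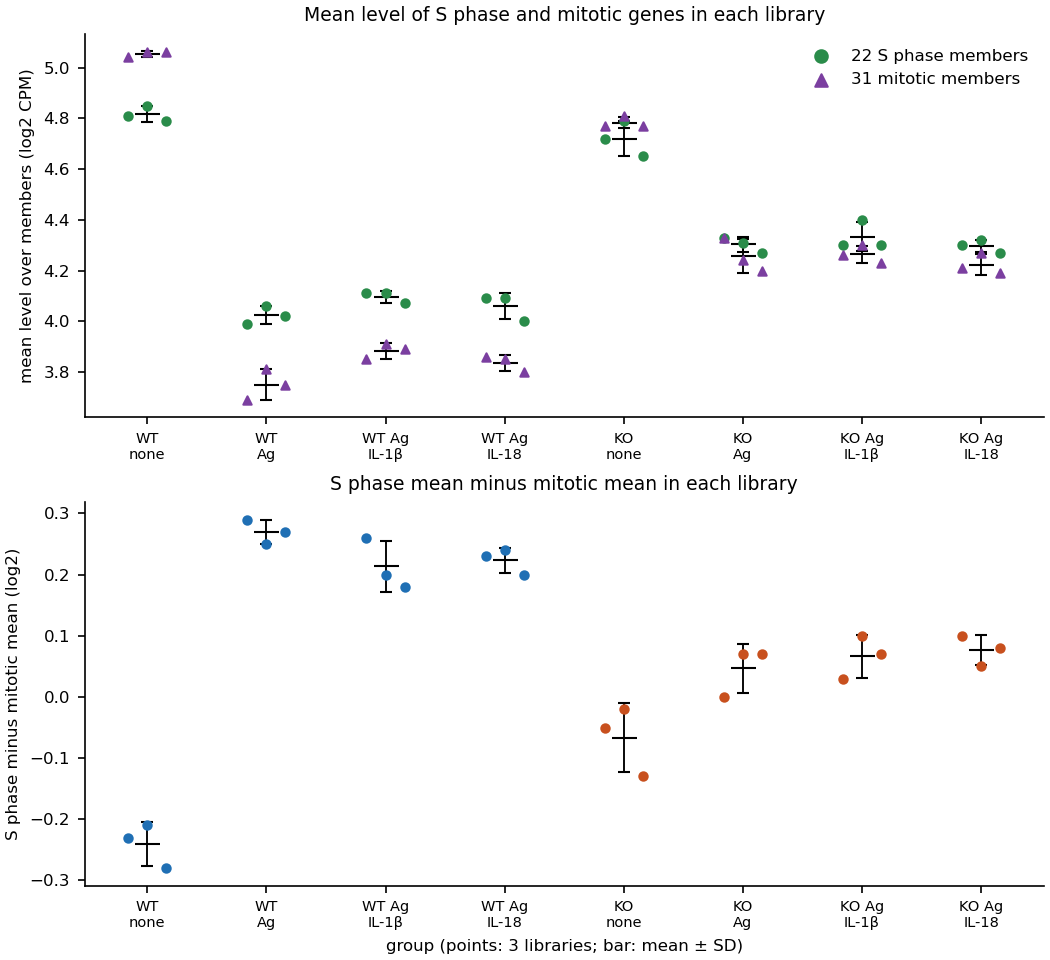
KO in the axis labels stands for Tmem175-/-. Upper panel, mean log2 CPM of the 22 S phase members (green circles) and the 31 mitotic members (purple triangles) in each of the 24 libraries; lower panel, the first less the second, with WT libraries in blue and Tmem175-/- libraries in orange. Bars are the mean ± SD of 3 libraries; the lower panel shows WT libraries at -0.28 to -0.21 without antigen and 0.18 to 0.29 with it, outside the range of the Tmem175-/- libraries.

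IL-1beta and IL-18 were compared with antigen alone within each genotype. By edgeR none of the 53 members passed in any of the 4 comparisons, where 0.0567% (WT, IL-1beta), 0.0426% (Tmem175-/-, IL-1beta), 0% (WT, IL-18) and 0.213% (Tmem175-/-, IL-18) of all genes passed. At an unadjusted p under 0.05 there were 4 S phase and 8 mitotic members for IL-1beta in WT cultures, 1 and 0 in Tmem175-/- cultures, 3 and 5 for IL-18 in WT cultures, and 3 and 3 in Tmem175-/- cultures. The shares of all genes at that p were 9.36%, 13.3%, 4.11% and 12.4%, so that the member counts in Tmem175-/- cultures were at or below the background. All 31 mitotic log2 fold changes were above 0 for IL-1beta in WT cultures, with a median of 0.12 and a range of 0.01 to 0.33. Of all genes 50.6% were above 0 there. For IL-18 in WT cultures 28 of the 31 were above 0, against 49.3% of all genes. Both comparisons used the same 3 WT libraries with antigen alone. In Tmem175-/- cultures 18 of the 31 were above 0 for IL-1beta and 11 for IL-18, against 51% and 52.2% of all genes. For IL-1beta in WT cultures the smallest adjusted p was that of Nusap1 (0.33, SE 0.0711, adjusted p = 0.091 by edgeR). It stood at 13.2, 14.3 and 12.4 CPM with antigen alone and 16.7, 18 and 15.5 CPM with IL-1beta. Those groups did not overlap.

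For IL-18 in Tmem175-/- cultures the smallest adjusted p values were those of Cenpe, the kinetochore motor (-0.26, SE 0.0731, adjusted p = 0.101 by edgeR), and Mki67 (-0.24, adjusted p = 0.127). Cenpe stood at 29.1, 26.7 and 25.8 CPM with antigen alone and at 20.4, 24.5 and 23.5 CPM with IL-18. DESeq2 called these 2 genes in that comparison and no member in the other 3. Whether the cytokine responses differed between genotypes was tested as well, and no member and no gene passed for either cytokine by edgeR (0% of all genes), while DESeq2 called 0 genes for IL-1beta and 4 for IL-18. At an unadjusted p under 0.05 edgeR gave 576 and 919 genes, among them 1 S phase and 4 mitotic members for IL-1beta and 2 and 6 for IL-18, and DESeq2 called no member.

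**Figure D4:**
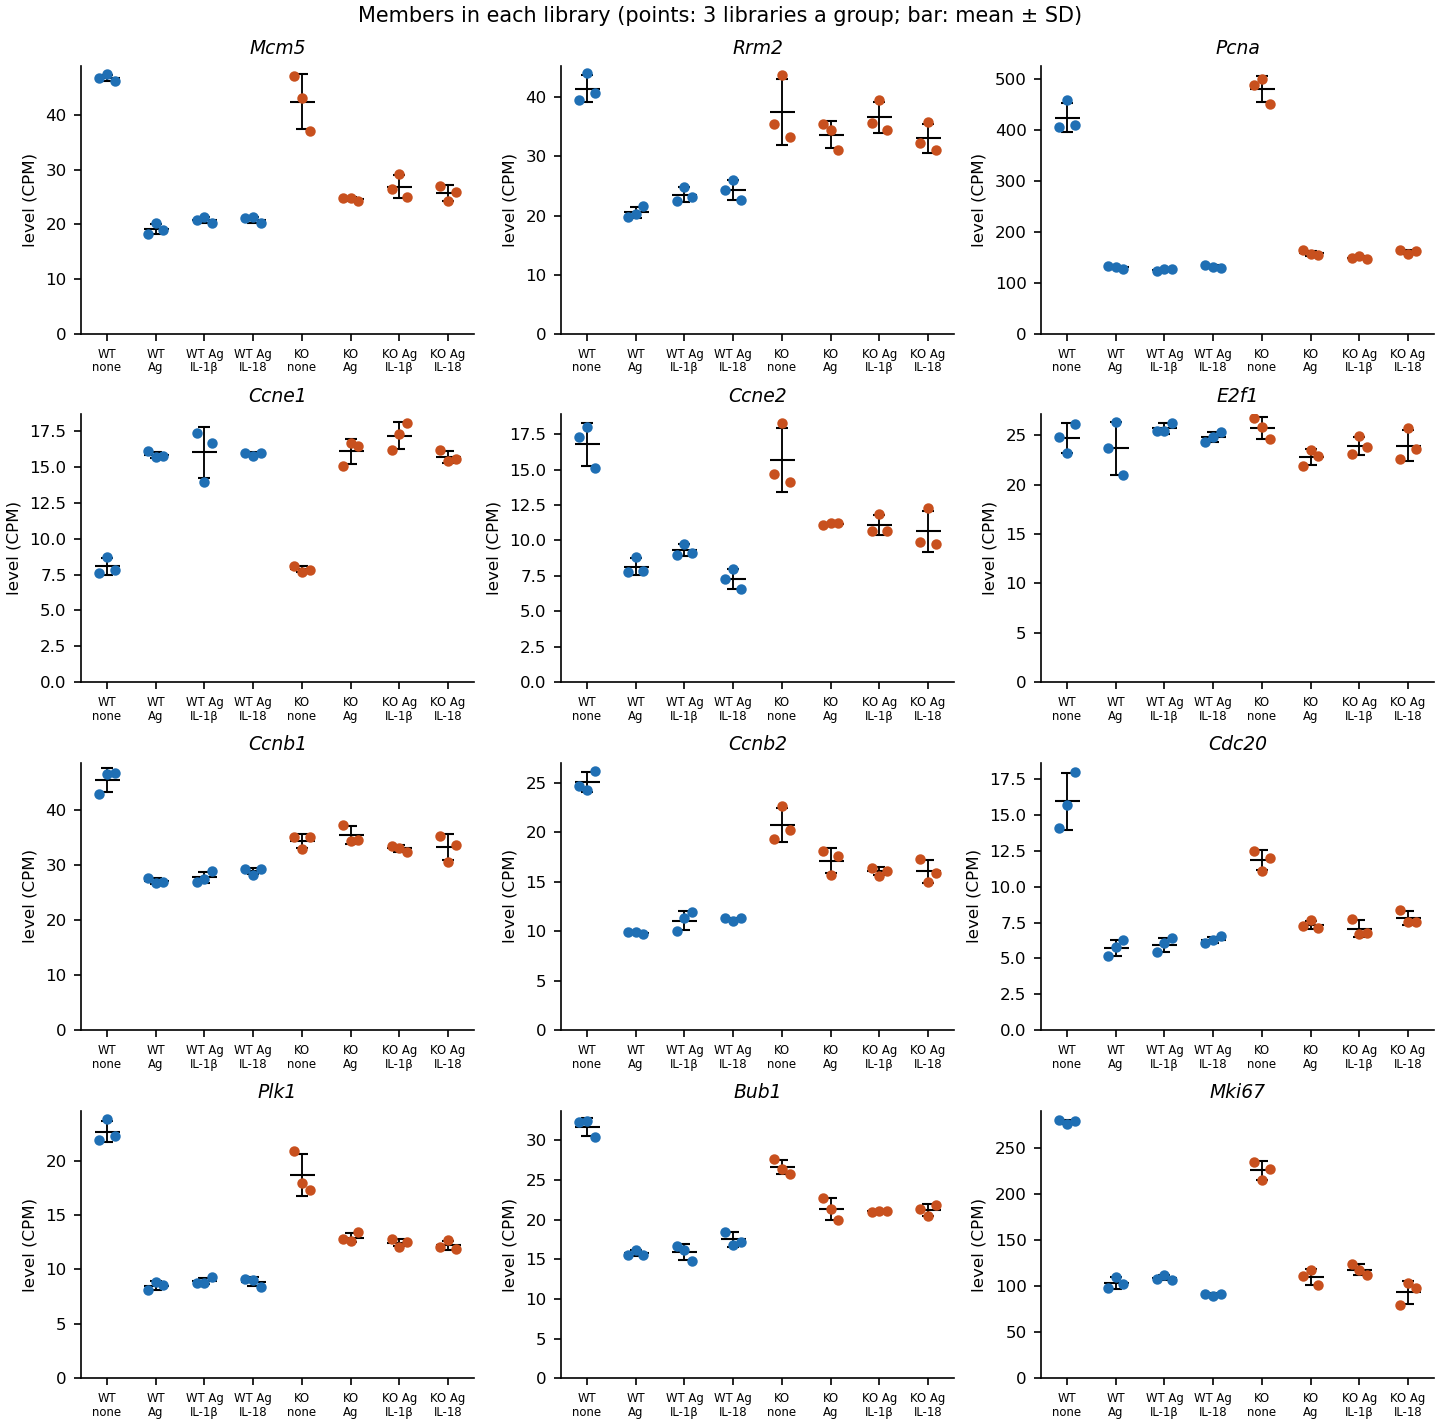
CPM of 12 members in each of the 24 libraries, with WT cultures in blue and Tmem175-/- cultures in orange; the bar is the mean ± SD of 3 libraries and every axis starts at 0. Ccnb1 and Rrm2 stay near their level without antigen in Tmem175-/- cultures (Rrm2 at 31.1 to 35.4 CPM with antigen), Ccne1 is higher with antigen in both genotypes, and the 3 antigen conditions of a genotype lie close together.

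Other genes of the same machinery were followed in lists of the same kind. Of 44 other mitotic genes, 43 fell and 1 rose with antigen in WT cultures, 34 fell and 1 rose in Tmem175-/- cultures, and 37 differed in response, all higher, with a median difference of 0.71, where 68%, 68.3% and 8.39% of all genes passed. Without antigen 20 were lower in Tmem175-/- cultures, and with antigen 35 were higher, where 16.9% and 15.3% of all genes passed. Anln, the cleavage furrow scaffold anillin, fell by 1.89 and 0.99 in WT and Tmem175-/- cultures. Pttg1, the securin that restrains separase, rose with antigen in Tmem175-/- cultures (1.2, SE 0.0854, adjusted p = 4.97e-13 by edgeR), from 12.3, 11.3 and 11.4 CPM to 28.4, 26.8 and 25 CPM, and its WT libraries went from 13.1, 12.3 and 13.7 CPM to 22.8, 27.3 and 26.4 CPM.

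Of 43 other replication genes, 31 fell and 5 rose with antigen in WT cultures, with a median of -0.44, and 22 fell and 7 rose in Tmem175-/- cultures, with a median of -0.23. The shares called in either direction were 83.7% and 67.4%, against 68% and 68.3% of all genes, so that the second was near the background. The directions were not, since falls outnumbered rises by 22 to 7 in Tmem175-/- cultures. There 34.6% of all genes fell and 33.8% rose. The response differed for 13 (30.2%, against 8.39% of all genes), all higher, among them Mcm10 (0.87), which helps to start unwinding, the polymerase epsilon subunit Pole (0.75) and Tipin (0.52), which protects the fork. With antigen, 15 (34.9%, against 15.3% of all genes) were higher in Tmem175-/- cultures, Pole by 0.54 (adjusted p = 0.000151 by edgeR). Chaf1b, the partner of Chaf1a, rose with antigen in Tmem175-/- cultures (0.63, adjusted p = 4.3e-09 by edgeR), from 13.1, 14.9 and 15.2 CPM to 22.6, 22.5 and 21.7 CPM. In WT cultures it stood at 13.8, 14.4 and 13.9 CPM without and 21.1, 24.1 and 21.3 CPM with antigen, likewise without overlap.

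The G1 regulators went both ways with antigen. Of 23 D cyclins, G1 kinases, RB family and other E2F genes, 8 rose and 12 fell with antigen in WT cultures, and 7 rose and 11 fell in Tmem175-/- cultures. The rising share was near the background, since 33.5% of all genes rose and 34.5% fell in WT cultures and 33.8% and 34.6% in Tmem175-/- cultures. Ccnd3 rose by 1.33 and 1.53, Cdk6 fell by 1.45 and 1.41, and the E2F partner Tfdp2 fell by 1.05 and 1.13. Without antigen, Ccnd1 stood at 103, 127 and 98.4 CPM in WT and 55.2, 90.3 and 56.3 CPM in Tmem175-/- libraries, and Ccnd2 at 15, 12.3 and 14.6 against 8.65, 8.31 and 9.11 CPM. Both D cyclins were lower in Tmem175-/- cultures without overlap (Ccnd1 -0.71, adjusted p = 0.0153; Ccnd2 -0.68, adjusted p = 1e-04 by edgeR). With antigen all Ccnd1 libraries of both genotypes lay at 11 to 26.3 CPM.

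Of the 9 inhibitors of cyclin-dependent kinases, 7 were tested, and Cdkn2a and Cdkn2b had too few reads. Cdkn1a, which encodes p21, stood at 97.9, 117 and 105 CPM in WT libraries without antigen and 247, 251 and 247 CPM with it; it rose by 1.22 in WT and 1.35 in Tmem175-/- cultures. Cdkn1b, which encodes p27, stood at 99.9, 94.9 and 104 CPM in WT and 83.9, 79.9 and 81.9 CPM in Tmem175-/- antigen libraries, and so lay lower in the knockout without overlap (-0.28, SE 0.04, adjusted p = 7.39e-06 by edgeR). It rose with antigen in both genotypes, by 0.35 and 0.17, and the difference of these responses was -0.18 (adjusted p = 0.0479). Cdkn2c, a CDK4 and CDK6 inhibitor that is itself an E2F target, fell by 1.35 and 0.91 and was 0.4 higher in Tmem175-/- antigen cultures (adjusted p = 0.0497). Cdkn1c, which encodes p57, went from 17.8, 15.9 and 14.8 CPM to 1.19, 1.17 and 0.444 CPM in WT cultures, and fell by 4.1 and 4.24 on the log2 scale. Wee1 and Pkmyt1, the kinases that hold CDK1 inactive, fell by 1.51 and 1.19 in WT and by 1.38 and 0.7 in Tmem175-/- cultures, and Cdkn2d rose in Tmem175-/- cultures (0.38, adjusted p = 0.000197 by edgeR), with 0.12 (adjusted p = 0.2) in WT cultures and no called difference between these responses (0.26, adjusted p = 0.193).

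**Figure D5:**
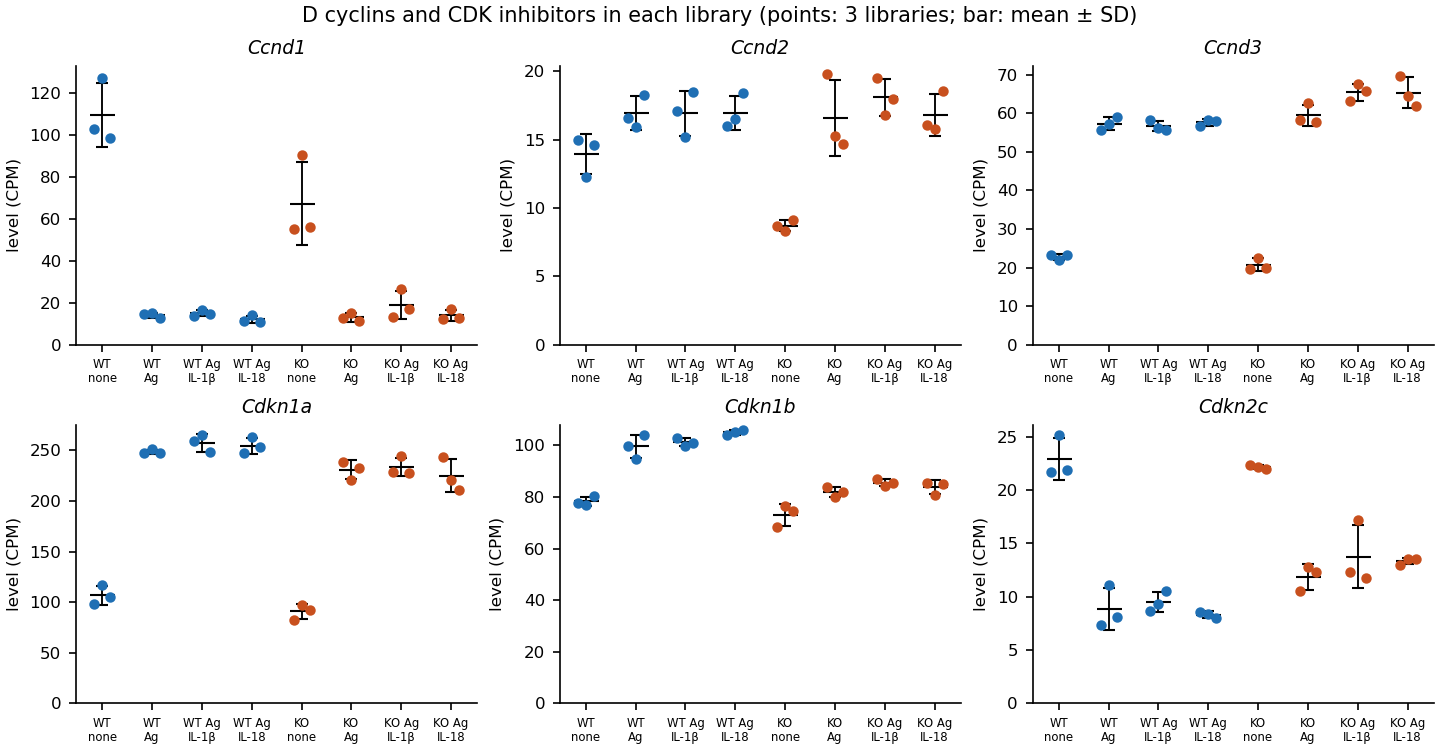
CPM of the 3 D cyclins and of the inhibitors Cdkn1a, Cdkn1b and Cdkn2c in each library, with WT cultures in blue and Tmem175-/- cultures in orange; the bar is the mean ± SD of 3 libraries and every axis starts at 0. Ccnd1 and Cdkn2c are lower and Ccnd3 and Cdkn1a higher in the antigen groups of both genotypes, and Cdkn1b in the Tmem175-/- antigen groups (79.9 to 87.1 CPM) lies below the WT antigen groups.

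Of 16 p53 target genes, 10 rose and 3 fell with antigen in WT cultures, and 11 rose and 4 fell in Tmem175-/- cultures, where 33.5% and 33.8% of all genes rose. Sesn2 rose by 1.89 and 2.03, Mdm2, the ubiquitin ligase of p53, by 1.16 and 1.13, and Zmat3 by 0.83 and 0.67, while Sesn1 fell by 2.09 and 2.43. The response of 1 of the 16 differed between genotypes, against 8.39% of all genes. This was Gtse1, a G2 and mitosis gene (0.52, adjusted p = 0.0156 by edgeR).

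Some members share exon bases with a neighbour on the other strand, and whether the counting used strand is not stated, so their reads cannot be told apart. In the GENCODE vM21 annotation 16 members overlap another gene, and for 10 the neighbour held at least 10% as many counts as the member: Ccna2 with Exosc9, Ccne2 with Ints8, Cdc20 with Elovl1, Cdc45 with Ufd1, Chaf1a with Ubxn6, Gins2 with Gse1, Kif20a with Cdc23, Mcm7 with Cops6 and Ap4m1, Nusap1 with Oip5, and Tk1 with Afmid. Without these 10, among 16 S phase and 27 mitotic members, 10 and 26 differed in antigen response with medians of 0.41 and 0.79. The share of all genes that differed was 8.39%. Among the same members 12 and 25 were higher in Tmem175-/- cultures with antigen, with medians of 0.29 and 0.52. There 7.7% of all genes were higher.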

How the data were processed

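Poly(A) RNA of 24 co-cultures was sequenced, 3 libraries in each of 8 groups, and the groups were taken from the sample titles. The authors deposited 1 table of raw read counts per Ensembl gene; fastp and the build GRCm39 are named per the submitters' processing notes, and the aligner, the counter and its strand setting are not given in the sources used here. Identifiers without a symbol in the reference table held 0.0228% of counts. CPM values were computed here from library sizes multiplied by the TMM factors (0.979 to 1.05). Differences were tested with edgeR 4.0.16 in R 4.3.3 (quasi-likelihood test, TMM normalisation, 8 group means in 1 fit with 16 residual degrees of freedom) on 14099 genes kept by filterByExpr, which hold 99.9% of counts; the common biological coefficient of variation was 5.01%. Adjusted p-values are Benjamini-Hochberg over those genes, in each of 13 comparisons. Mean levels of a class used log2 CPM with a prior count of 2. The test was also run on simulated data.

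The 53 members and the other gene lists were chosen with earlier results of these data known. Any member could be named; of the other lists, up to 4 called genes with the smallest p per comparison and all kinase inhibitors were named. The values of 1 gene so chosen are not reported here. Alternative settings were DESeq2 1.42.0 and its size factors, library totals without TMM, testing genes of any count, blocking on replicate number, fitting only the compared groups, omitting each library once, and, for class levels, the median over members and a prior count of 0.5. Leaving out members that overlap another gene was chosen after seeing the data. Transcript lengths and overlaps came from GENCODE vM21 on GRCm38, and promoters from RefSeq on GRCm38.p6, so none of their coordinates belong to the build of the counts.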

Additional observations from a re-analysis of the deposited data

Results flagged for a closer look

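The response to tumour antigen differed between the WT and Tmem175-/- cultures by a test of the difference itself for 14 S phase and 30 mitotic members (edgeR quasi-likelihood test, adjusted p under 0.05), which is what singled these results out. Of all genes 8.39% passed, 3.79% with a higher response in Tmem175-/- cultures and 4.6% with a lower one. The member list was chosen with earlier results of these data known, so these counts are descriptive. Of the S phase members with the smallest p, Rrm1 differed by 0.52, Rrm2 by 0.86, Uhrf1 by 0.55 and Mcm3 by 0.40 on the log2 scale. Of the mitotic members, Ccna2 differed by 0.97, Ccnb1 by 0.80, Ccnb2 by 1.08 and Nusap1 by 0.97. In each of these 8 genes the antigen response lay higher in the Tmem175-/- cultures.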

How the results depend on the processing

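Under the alternatives, single-gene values were followed for the 5 S phase and 5 mitotic members with the smallest p in each comparison. Of these 1740 values, 1713 kept their side of the threshold, 15 lost the threshold and 12 gained it. None that passed in either fit reversed direction. Direction was not compared where neither fit passed, and genes named from the other lists were not followed. Where many members passed, the followed ones lay farthest from the threshold, so calls over all 53 members were less stable. Between genotypes with antigen and IL-1beta, 8 of 41 calls were lost without WT replicate 3. Between genotypes without antigen, 6 of 30 were lost without Tmem175-/- replicate 1. In the WT antigen response all 52 calls were kept in each fit. The counts of called S phase members between genotypes without antigen (5) were 3 by DESeq2, 11 with library totals and no TMM factor, and 2 to 8 when 1 library was left out. For IL-18 in Tmem175-/- cultures, 0 mitotic members became 2 by DESeq2, 2 without a filter on low counts and 0 to 2 with 1 library left out; for IL-1beta in WT cultures they became 3 without the filter. Over all genes, IL-18 in Tmem175-/- cultures (30) gave 231 by DESeq2, 302 without the filter, 0 with only the compared groups, and 0 to 233 with 1 library left out, the highest without Tmem175-/- IL-18 replicate 2. IL-1beta in Tmem175-/- cultures (6) gave 55, 287 without the filter, and 1 to 284, the highest without Tmem175-/- antigen replicate 2. IL-18 in WT cultures (0) gave 1, 2, 2 with only the compared groups, and 0 to 1; IL-1beta in WT cultures (8) gave 79 without the filter, 46 with only the compared groups, and 2 to 7. The genotype difference in the IL-18 response (0) gave 4 by DESeq2, 17 without the filter and 0 to 3, and that in the IL-1beta response (0) gave 1 without the filter. The genotype difference with antigen and IL-18 (2851 genes) gave 1867 to 2562. The cause of these shifts was not tested.

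The main fit did not pair libraries by replicate number, and the labels do not say what the numbers mark. Between genotypes without antigen the correlations of same-numbered libraries were 0.16, 0.23 and 0.08, and all 6 libraries correlated best with their own number. In other comparisons of 2 groups this count ran from 2 of 6 (Tmem175-/- with against without antigen) to 6 of 6 (IL-18 in either genotype). Whether same-numbered libraries share a source was not tested. With the replicate as a block, 1 mitotic member was called for IL-18 in Tmem175-/- cultures and 2 for IL-1beta in WT cultures. Over all genes the block gave 274 (IL-18, Tmem175-/-), 422 (IL-1beta, Tmem175-/-), 1 (IL-18, WT), 102 (IL-1beta, WT) and 5 (genotype difference in the IL-18 response).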
